A study of Homo sapiens with 8 samples.

Results

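The 4 control-guide libraries of the OCI-AML5 CRISPR experiment give the baseline transcriptome of this cell line. They also show how far that baseline moves from one control guide to the next. They were chosen by their label, the sgControl libraries, and are 4 of the 8 libraries in the series. The other 4 carry guides against CEBPD, which encodes a basic leucine zipper transcription factor, and no CEBPD-guide library entered any value or test given here. OCI-AML5 is an established human acute myeloid leukaemia line. Each control culture received lentiCRISPRv2, a lentiviral vector that expresses Cas9 together with a guide, with a non-specific guide (sgControl 1, 2, 3 or 4) that was not aimed at CEBPD. All 4 cultures therefore share the line, the vector and the virus, and they differ in the guide. Each guide has 1 library, so guide, culture and library cannot be told apart, and a p-value below measures only the spread between these 4 libraries. The labels give no untransduced cells, no clone, no time after transduction and no statement on whether the cultures were independent.

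Control guides are used because transduction, Cas9 and selection can act on cells whatever the guide targets. Several different control guides show the variation that has nothing to do with the gene under study. Acute myeloid leukaemia cells are arrested along the path from haematopoietic stem cell to granulocyte or monocyte, so their transcripts mix stem cell regulators, granule proteins and receptors for the growth factors of that lineage. Which of these a line carries describes where along the path it sits and which signals it can receive.

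Polyadenylated RNA was sequenced, and the deposited table holds read counts for 23562 rows. The 4 control totals lay between 10217751 and 11298795 counts, so 1 CPM, the unit of counts scaled to a common library size, corresponded to between 10.2 and 11.4 reads. Scaling factors by the trimmed mean of M-values (TMM), which correct CPM for library composition, ran from 0.993 to 1.00. The 4 libraries were alike in composition. Mitochondrial genes took between 2.95% and 3.08% of the counts, ribosomal protein genes between 4.88% and 5.17%, and the 10 most abundant genes between 4.19% and 4.39%. Values for a gene are listed below in the order sgControl 1, 2, 3 and 4, a mean is followed by its SD over these 4 libraries, and a gene is called expressed when it reached at least 1 CPM in all 4.

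By that rule 12794 rows were expressed, 9112 reached 1 CPM in none of the 4 libraries and 1656 reached it in some of them. Of 14365 protein-coding rows, 11049 were expressed and 143 had no count in any control library. Protein-coding genes took 97.3% of all counts. A level of at least 10 CPM in all 4 libraries was reached by 9172 rows, 100 CPM by 2417 and 1000 CPM by 64.

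Levels of different genes are compared as CPM per kilobase of exon, using GENCODE release 29 exon lengths. Of the 15 highest genes 11 were mitochondrial. MT-CO1, a cytochrome c oxidase subunit, led with 4239 ± 113 CPM per kilobase (SD, n = 4), followed by MT-CO3 with 3368 ± 143 and MT-CO2 with 3290 ± 129. The 4 nuclear genes among the 15 were the cytoskeletal actins ACTG1 at 1471 ± 80.1 CPM per kilobase and ACTB at 1376 ± 55.3, the translation elongation factor EEF2 at 1430 ± 62.9, and FTL, the ferritin light chain that stores iron, at 1305 ± 21.1. FTL and MT-ND3 left this group when the longest transcript was used as the length in place of all exons. Actins, FTL and mitochondrial genes have near-identical copies elsewhere in the genome, so their share of reads is uncertain.

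The myeloid transcription factors were high, and all 14 of the list were expressed. MYC, which drives growth and proliferation, was at 886, 973, 845 and 855 CPM. RUNX1, the core-binding factor subunit needed to form blood stem cells, was at 673, 663, 676 and 672 CPM, and MYB, a progenitor factor, at 527, 463, 495 and 525. RUNX1 was nearly level across the guides, and MYC was highest in sgControl 2.

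SPI1 (PU.1), which commits progenitors to the myeloid lineage, was at 301, 310.5, 299 and 322 CPM, and GFI1, a repressor that favours granulocytes, at 464, 445, 464 and 453. The monocyte and dendritic cell factor IRF8 was at 282, 346, 346 and 324 CPM. In the C/EBP family, which switches on granulocyte and monocyte genes, CEBPD itself was at 218, 206, 206 and 204 CPM, and CEBPA at 122, 116, 103 and 139. CEBPD, the gene that the other guides of the study address, thus differed little between the control guides and did not exceed counting error, whereas CEBPA did, with its highest value in sgControl 4.

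CEBPB averaged 33.7 ± 4.59 CPM and CEBPE, a late granulocyte factor, 22.5 ± 2.41. KLF4, a monocyte factor, was near the lower limit of expression at 2.98 ± 0.626 CPM. Per kilobase the order of the named myeloid factors was MYC at 296, SPI1 at 149, GFI1 at 138, CEBPD at 95.7, MYB at 91.5, IRF8 at 62.9, CEBPA at 45.5 and RUNX1 at 43.1 CPM. The order depended on the length used: by longest transcript RUNX1 rose to 92.2 and SPI1 to 219.5 CPM per kilobase. Neighbours CEBPD and MYB overlapped within their SDs of 2.95 and 5.42, as did CEBPA and RUNX1 with 5.76 and 0.370.

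Of the stem cell factors, 12 of 14 had a row and 9 were expressed. LYL1, a partner of LMO2 in stem and progenitor cells, was at 535, 564, 564 and 553 CPM, FLI1, an ETS factor, at 337, 344, 359 and 359, and LMO2 at 199.8, 217, 202 and 204. GATA2 averaged 86.1 ± 4.42 CPM, ERG 51.7 ± 6.71 and TAL1 39.8 ± 3.69. MEIS1, the HOX partner raised in many leukaemias, was at 3.03 ± 0.199 CPM, and GFI1B, PRDM16 and HMGA2 were below the expression limit in all 4 libraries.

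Posterior HOXA genes and anterior HOXB genes, which mark immature blood cells, were present at modest levels. HOXA9 was at 22.8, 20.1, 24.9 and 21.8 CPM and HOXA10 at 12.6, 14.3, 12.3 and 14.8. HOXB4 was at 30.4, 31.9, 28.5 and 28.8 CPM and HOXB3 at 26.5, 26.0, 21.9 and 20.2. None of the 5 HOXA genes with enough reads to test differed between guides beyond counting error. Over all genes the share was 13.5% at 1 to 5 CPM, 21.2% at 5 to 20 and 25.0% at 20 to 100. The result for 5 genes therefore does not set them apart. The remaining HOXA and HOXB rows had means between 0.183 and 3.09 CPM. The 18 HOXC and HOXD genes looked for have no row in the table and were not analysed here.

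On the cell surface OCI-AML5 carried pan-leukocyte and myeloid progenitor transcripts. The adhesion receptor CD44 was at 758, 739, 805 and 814 CPM, the leukocyte phosphatase PTPRC (CD45) at 308, 369, 323 and 347, and the sialic acid-binding receptor CD33 at 144, 124, 135 and 128. FLT3, the receptor of a progenitor growth factor, was at 143, 128, 194 and 149 CPM, and CLEC12A, a myeloid lectin, at 80.5, 59.2, 79.5 and 89.7. FLT3 was highest in sgControl 3 and CLEC12A lowest in sgControl 2.

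The progenitor antigen CD34 was among the 10 most variable genes described below. Its level was 32.2 CPM in sgControl 1, 66.0 in sgControl 2, 104 in sgControl 3 and 13.5 in sgControl 4, a 7.74-fold range. In bulk RNA fewer cells with a transcript and less of it per cell cannot be told apart. KIT, the stem cell factor receptor, was at 23.8, 29.3, 30.0 and 52.2 CPM, so the library with the least CD34 had the most KIT. CXCR4, the marrow homing receptor, was at 8.98, 0.391, 1.74 and 3.14 CPM, a wider range than that of CD34 but at a much lower level. Of the 20 surface markers with a row, 16 were expressed, and THY1 and ITGA6 were among the 4 that were not. Of 19 tested, 14 differed between guides beyond counting error, a share of 73.7% against 25.6% of all 14633 genes tested. That share rises with level, to 25.0% at 20 to 100 CPM and 49.1% at 100 to 1000, and the markers had a median of 73.2 CPM.

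Granule genes of early neutrophils were mixed. SRGN, the proteoglycan that packs granule proteins, was at 981, 734, 677 and 1038 CPM, PRSS57, a granule protease, at 182, 143, 266 and 319.7, and LYZ, lysozyme, at 171, 75.6, 103 and 152. CTSG, cathepsin G, was at 32.8, 25.4, 26.2 and 41.7 CPM and MPO, myeloperoxidase, at 18.6, 16.3, 15.6 and 21.2. These 5 genes were all lower in sgControl 2 and in sgControl 3 than in sgControl 4, as were RNASE2 and CD63 of the same list. SERPINB1 was not, at 498.5, 452, 486.5 and 471 CPM, higher in sgControl 3 than in sgControl 4. ELANE, neutrophil elastase, was at only 0.877 ± 0.459 CPM and PRTN3, proteinase 3, at 1.53 ± 0.969, although both proteases belong to the same granules.

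Most late neutrophil genes were nearly silent. CSF3R, the G-CSF receptor, was at 306, 291, 300.2 and 310.2 CPM and CXCR2, a chemokine receptor, at 53.6, 52.9, 52.2 and 51.9, and these values did not exceed counting error. The calprotectin subunits S100A8 and S100A9, among the most abundant transcripts of mature neutrophils and monocytes, averaged 1.04 ± 0.674 and 1.24 ± 0.450 CPM. Of 20 late neutrophil genes 11 had a row, and only CSF3R, CXCR2 and MMP25 were expressed.

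Monocyte genes ranged from high to silent. CSF1R, the macrophage growth factor receptor, was at 405, 508, 437 and 389.9 CPM, CCR2, the receptor that draws monocytes to tissue, at 97.7, 97.9, 99.8 and 104, and FCGR2A, an Fc receptor, at 97.5, 73.4, 88.2 and 117. The integrin ITGAM (CD11b) was at 6.43, 7.14, 4.02 and 11.0 CPM and the matrix proteoglycan VCAN at 13.7, 3.62, 0.549 and 15.2. CD14, the endotoxin co-receptor that defines classical monocytes, had 1 read in the 4 libraries together. FCGR3A, C1QA and C1QC had none, and 11 of 21 monocyte and macrophage genes with a row were expressed.

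Besides FLT3, which progenitors share, dendritic cell genes included TCF4 at 48.7 ± 6.28 CPM and CLEC10A, a lectin of conventional dendritic cells, at 11.1, 36.8, 21.8 and 22.2 CPM. CLEC10A was lowest in sgControl 1 and highest in sgControl 2. In the MHC class II pathway, which presents peptides to helper T cells, the invariant chain CD74 was at 1196, 1574, 1512 and 1235 CPM and the master regulator CIITA at 127, 153, 171 and 115. Both were higher in sgControl 2 and 3 than in sgControl 1 and 4. HLA-DMA, expressed in the same list, went the other way, at 4.05, 2.15, 1.92 and 4.25 CPM, so the list had no common order. The class II chain HLA-DRA was at 2.99, 2.74, 0 and 0.739 CPM, and HLA-DPA1 averaged 1.80 ± 0.698.

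The HLA values have a limit that lies in the position of the genes. The 107 protein-coding rows between 28 and 34 Mb of chromosome 6, which hold the MHC, had a median of 5.19 CPM, and 53.2% of those tested differed between guides beyond counting error. The 125 rows next to them, up to 45 Mb, had a median of 27.2 CPM and 17.2% beyond counting error. No source used here states how reads that match several places were counted. The levels of MHC genes are therefore uncertain, and the part of the counting in them was not tested.

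Erythroid and megakaryocyte genes were expressed in part, 6 of 10 and 4 of 10 with a row, and those expressed included genes that progenitors and myeloid cells share. NFE2, a factor shared by erythroid and megakaryocyte cells, was at 129 ± 3.33 CPM, PLEK, a platelet and leukocyte protein, at 329.6 ± 8.38 and ITGA2B (CD41) at 17.8, 30.4, 27.7 and 39.5. GYPC, a red cell membrane protein, averaged 73.0 ± 5.30 CPM, ALAS1, a haem synthesis enzyme, 81.9 ± 13.1, and EPOR, the erythropoietin receptor, 7.56 ± 0.720. GATA1, the factor that defines these lineages, was at 0.0949 ± 0.0799 CPM. Of 16 mast cell, basophil and eosinophil genes 11 had a row and only GATA2, which progenitors also use, was expressed.

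Lymphoid and non-blood genes were near the floor. Among B cell genes CD79A was at 5.99, 5.18, 5.21 and 5.45 CPM. Among T cell genes CD3D had reads only in sgControl 4, at 0.462 CPM. Summed over the list, T cell genes came to 8.54, 8.21, 10.5 and 16.3 CPM, epithelial genes to 5.02, 4.89, 3.29 and 5.08, and fibroblast and muscle genes to 10.4, 7.33, 7.32 and 11.2. The exceptions were adhesion molecules: NCAM1 (CD56), a natural killer marker also seen on leukaemias, was at 76.9, 19.0, 48.5 and 46.0 CPM, and PECAM1, shared by endothelium and leukocytes, at 140.3, 89.1, 115 and 104. Both were highest in sgControl 1 and lowest in sgControl 2. Myeloid markers were thus present, and most defining markers of other lineages were at or near 0, with NCAM1, ITGA2B and CD79A as exceptions.

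**Figure D1:**
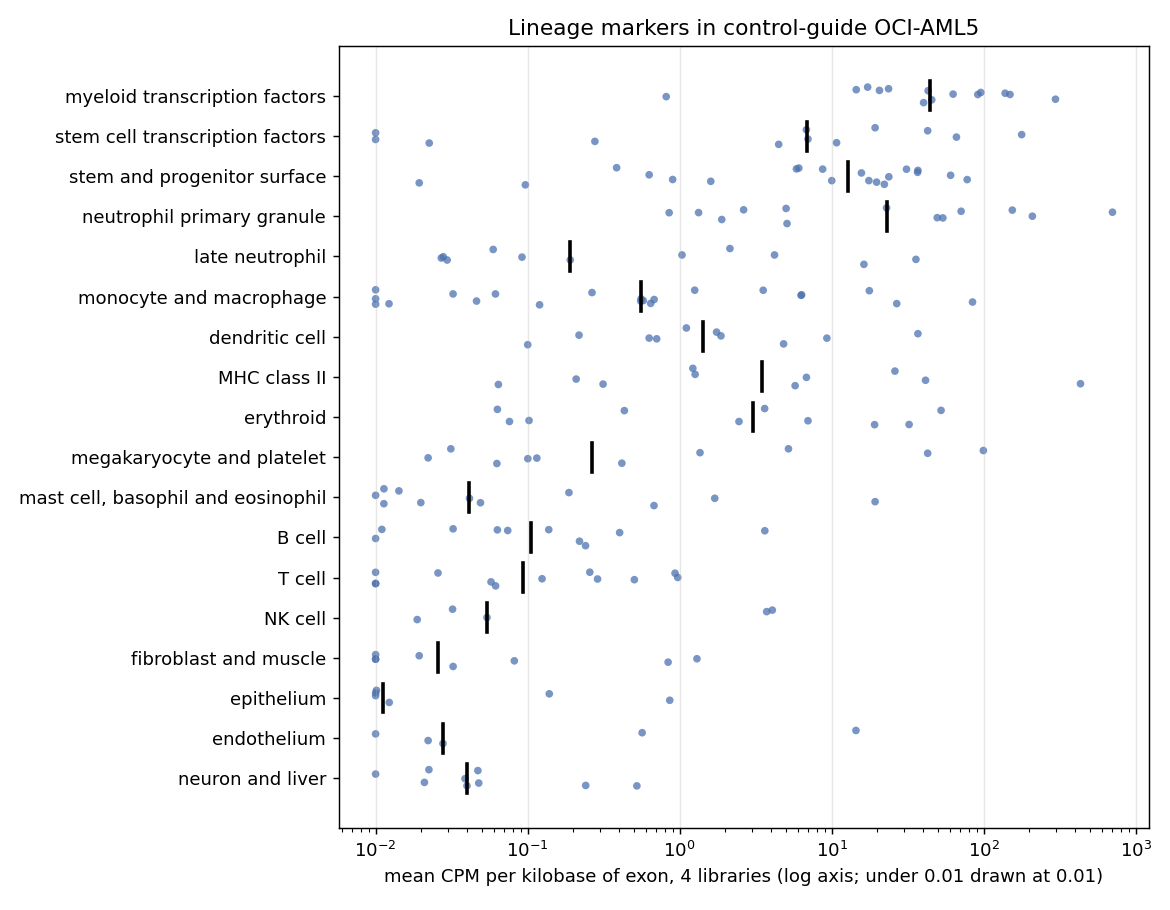
Lineage markers in the control-guide libraries. Each point is a gene, placed by its mean CPM per kilobase of exon over the 4 libraries on a log axis, and the bar is the median of the list; myeloid transcription factors have the highest median, with MYC at 296 CPM per kilobase, while lymphoid and non-blood lists lie mostly under 1 and values under 0.01 are drawn at 0.01.

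Signalling genes show which inputs the line can receive. Many cytokine receptors pass signals to JAK kinases, which phosphorylate STAT factors, and STATs then induce the SOCS inhibitors that shut the pathway off. Of 29 receptor genes with a row, which include receptors of other types such as CSF1R and TNFRSF1A, 22 were expressed. IL6R was the highest, at 804, 776, 831 and 757 CPM, above CSF1R, CSF3R and TNFRSF1A, the last at 256, 279, 261 and 238. Per kilobase IL6R was also first, at 123 CPM against 84.4 for CSF1R.

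IL6ST (gp130), the signalling chain that IL6R needs, was much lower, at 31.3, 32.2, 34.5 and 29.9 CPM. CSF2RB, the signalling chain shared by the GM-CSF, IL-3 and IL-5 receptors, was at 70.6, 65.2, 64.0 and 83.2 CPM. Its ligand-binding partners CSF2RA and IL3RA were at 0.317 ± 0.215 and 1.08 ± 0.506 CPM. These 2 partners lie in the pseudoautosomal region, which X and Y share. The 16 protein-coding pseudoautosomal rows had a median of 0.911 CPM and 5 of them were expressed, against a median of 11.2 CPM over 52 rows at 2.8 to 20 Mb of X. The low values of CSF2RA, IL3RA and CD99 are therefore uncertain, and whether counting lowered them was not tested.

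Among ligands TGFB1 was the highest, at 351, 391, 336 and 362 CPM. The neutrophil chemokine CXCL8 was at 26.9, 35.4, 24.5 and 22.1 CPM, and KITLG, the ligand of KIT, at 2.82, 2.15, 0.914 and 11.3. KITLG and its receptor KIT both had their highest value in sgControl 4. IL6 had no read in any control library, and 7 of 15 ligand genes with a row were expressed.

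All 14 JAK and STAT pathway genes with a row were expressed. The kinases TYK2 and JAK1 averaged 222 ± 6.49 and 173 ± 2.94 CPM, JAK2 was lower at 60.8 ± 3.83, and STAT6, STAT5B, STAT5A and STAT3 lay between 152 and 198 CPM. PTPN6 (SHP-1), a phosphatase that limits cytokine signals, was at 395, 428, 380.4 and 449. The STAT targets were present as well: PIM1, a survival kinase, was at 496, 478, 409.7 and 529 CPM, CISH at 165, 159, 155 and 169.7, and SOCS2 at 60.0, 71.8, 62.9 and 66.2. SOCS1 and SOCS3 were lower, at 13.4 ± 0.968 and 7.22 ± 0.685 CPM. PIM1 was lowest in sgControl 3, and CISH did not differ beyond counting error.

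Of the RAS and MAPK genes 18 of 21 with a row were expressed, with NRAS at 116 ± 2.32 CPM. DUSP6, the ERK phosphatase that ERK activity induces, was at 66.6, 79.1, 63.2 and 58.1 CPM. The feedback genes SPRY1 and SPRY2 were expressed, at 16.1 ± 0.432 and 14.2 ± 1.87 CPM, while SPRY4 and ETV4 were below the expression limit. Among immediate early genes FOSL2 stood far above the rest at 580.5, 414, 678 and 598 CPM, with FOS at 33.0 ± 4.44 and EGR1 at 4.72 ± 0.883. FOSL2 was lowest in sgControl 2, and EGR2 had no read in the 4 libraries.

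In the NF-kB list 3 of 13 tested genes differed beyond counting error, against 25.6% of all genes tested. The subunit NFKB1 was at 133 ± 3.03 CPM and did not, whereas the subunits NFKB2, at 32.7, 38.2, 27.9 and 27.2, and RELB, at 4.40, 7.82, 6.40 and 6.93, did, both highest in sgControl 2. Interferon-stimulated genes were expressed at low to middle levels, 31 of 40 with a row, and 20 of 38 tested (52.6%, against 25.6% of all genes) differed beyond counting error. MX2, an antiviral GTPase, was at 32.4, 55.8, 49.1 and 61.2 CPM, OAS2, which makes the activator of RNase L, at 4.14, 9.10, 9.60 and 2.68, and IFI44L at 0, 3.33, 1.01 and 0.277. OAS2 and IFI44L were higher in sgControl 2 and 3 than in sgControl 1 and 4, whereas MX2 was lowest in sgControl 1 and highest in sgControl 4. IFITM3 was nearly silent at 0.134 ± 0.169 CPM.

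Targets of the DNA damage response, a list of cell cycle inhibitors, apoptosis genes such as BAX and FAS, and repair and metabolic genes, were all expressed, 25 of 25. MDM2, a ubiquitin ligase, was at 128, 138, 114 and 136 CPM, and CDKN1A (p21), a cell cycle inhibitor, at 217, 262, 148 and 252. CDKN1A and MDM2 were lowest in sgControl 3. CDKN2A (p16 and p14ARF), which is deleted in many lines, was present at 45.5, 53.8, 46.0 and 50.1 CPM.

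Of the D cyclins CCND3 and CCND2 dominated, at 125 ± 13.4 and 113 ± 6.59 CPM. CCND1 was at 17.7 CPM in sgControl 1 and at 1.08, 3.29 and 0.739 in the other 3. Their kinase partner CDK6 was at 379.6, 578, 479 and 493 CPM, lowest in sgControl 1. All 25 proliferation genes were expressed, with MKI67 at 941 ± 33.1, MCM4 at 800.4 ± 37.1 and TOP2A at 708 ± 11.5 CPM. None of them had a range over 2-fold, which is rare at such levels. Over all genes it was found in 1.06% of those of 20 to 100 CPM and 0.239% of those of 100 to 1000.

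Among apoptosis regulators BCL2, the target of venetoclax, was at 406, 399, 429 and 354 CPM and MCL1 at 328, 303, 326 and 311. BCL2L1 (BCL-XL) was lower at 31.2 ± 4.22 CPM and BCL2A1 was nearly silent, with reads only in sgControl 4. BCL2 was lowest in sgControl 4.

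All 33 genes often mutated in acute myeloid leukaemia that have a row were expressed. NPM1 was the highest at 1198, 1253, 1228 and 1242 CPM, DNMT3A was at 100.2 ± 2.82, and TET2 at 101, 77.3, 101 and 103, lowest in sgControl 2. WT1, a zinc finger factor used to follow residual leukaemia, was at 1.94, 3.03 and 1.28 CPM in sgControl 1 to 3 and at 11.3 in sgControl 4. Counts cannot show whether any of these genes was mutated. Among further antigens used as drug targets CD70 was at 105, 119, 93.5 and 117 CPM and IL1RAP at 133, 99.5, 106 and 125.

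Metabolic and stress lists were expressed nearly throughout. All 23 genes of cholesterol synthesis with a row were expressed, as were all 29 of hypoxia and glycolysis, with ENO1 at 2958 ± 36.8 CPM and GAPDH at 1775 ± 48.7. All 23 genes of the integrated stress response, which cells raise when translation is impaired, were expressed, with its factor ATF4 at 572, 629, 585 and 663 CPM. XBP1, a factor of the unfolded protein response, was at 615, 751, 689 and 653. ATF4 was highest in sgControl 4 and XBP1 in sgControl 2.

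All 13 heat shock genes with a row were expressed, and the chaperone HSP90AB1 did not exceed counting error at 1874, 1874, 1905 and 1877 CPM. All 16 housekeeping genes were expressed, led by the translation factor EEF1A1 at 5866 ± 209 CPM, and 10 of the 16 differed beyond counting error, where 49.1% of all genes of 100 to 1000 CPM and 92.8% of those above 1000 did. B2M, the light chain of MHC class I, was at 184, 175, 154 and 189.9 CPM, lowest in sgControl 3. Of the 22 genes of the double-strand break response with a row all were expressed, with BRCA2 at 50.9, 51.8, 65.6 and 55.1 CPM and MDC1, which lies in the MHC, at 14.3, 10.4, 17.6 and 6.65. Replication-dependent histone genes, whose main transcripts lack a poly(A) tail, had 11 rows and 5 expressed genes, with H2BC12 at 7.25 ± 0.772 CPM.

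Across all genes the 4 control guides gave close but not identical transcriptomes. The common biological coefficient of variation, the spread left once counting error is taken out, was 9.48%. Of 14633 genes tested 3752, or 25.6%, differed among the 4 libraries by more than counting error (Poisson deviance on 3 degrees of freedom, Benjamini-Hochberg adjusted p under 0.05). Reads without molecular identifiers are not independent molecules, so counting error is a lower limit on the technical spread. Of 10739 rows with a mean of at least 5 CPM, 266, or 2.48%, had a highest library more than 2 times the lowest. Without sgControl 2 this count fell to 160, and with a mean of at least 20 CPM required it was 63.

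The spread narrowed with level but did not reach counting error. Values for counting are the expected coefficient of variation, and a median of values from 4 libraries tends to fall below its expectation. The median coefficient of variation was 22.7% for genes of 1 to 5 CPM, against 20.9% expected from counting. For genes of 20 to 100 CPM it was 6.08% against 4.52%. For the 2509 genes of 100 to 1000 CPM it was 4.18% against 2.36%, and for the 69 genes above 1000 CPM 3.15% against 0.819%. At the highest level 92.8% of genes thus differed beyond counting error although their typical spread was small.

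**Figure D2:**
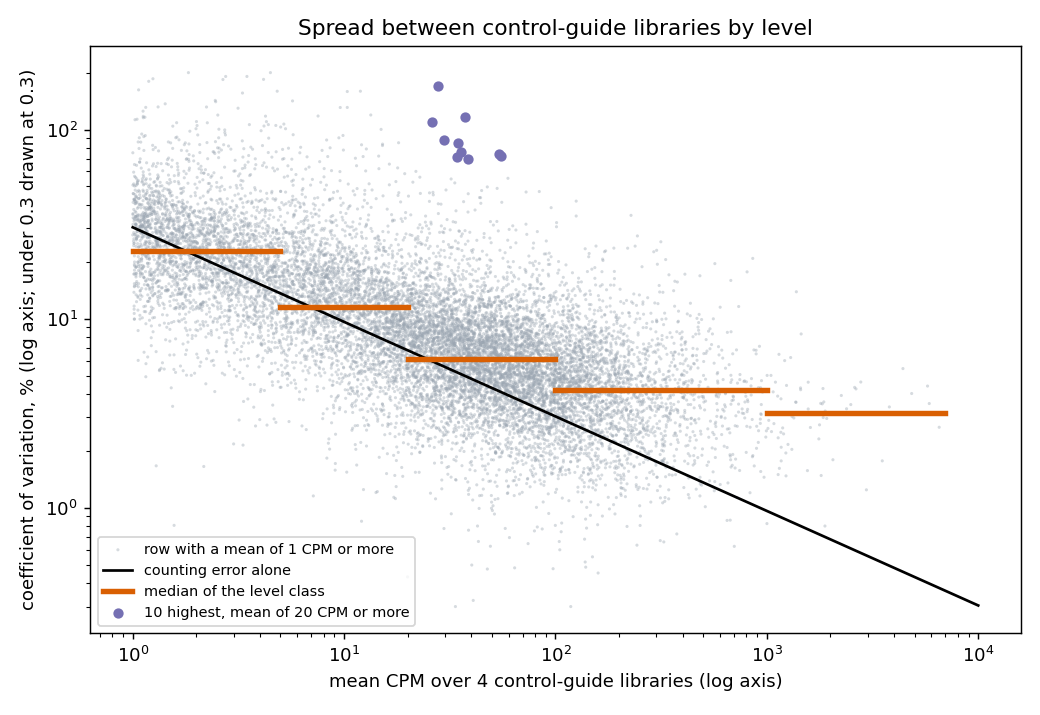
Coefficient of variation over the 4 control-guide libraries against mean CPM, both on log axes. The black line is the value expected from counting error alone, and orange bars are the medians of 5 level classes. Purple points are the 10 most variable genes with a mean of 20 CPM or more, which reach from 69.6% to 170%.

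No pair of libraries stood far apart. Pearson correlations of log2 CPM over the 14633 genes tested, which are not independent, ran from 0.982 to 0.987. Over the 10739 rows with a mean of at least 5 CPM, sgControl 1 and 3 had the fewest genes over 2-fold apart, 69. sgControl 2 and 3 had the most, 126. The 3 principal components of the 4 libraries held 41.8%, 32.5% and 25.7% of the variance, so no single component dominated. Over 7938 genes of at least 20 CPM, the SD of the log2 ratio to the other 3 libraries was 0.147, 0.179, 0.161 and 0.164, and 10, 26, 11 and 15 genes lay over 2-fold away. sgControl 2 had the widest spread and sgControl 1 the narrowest.

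The 10 steadiest genes with a mean of at least 20 CPM were JKAMP, R3HDM4, PCSK7, NOP58, AAK1, PIH1D1, FTSJ1, GAMT, NAGPA and MKRN1. JKAMP was at 33.6, 33.6, 33.6 and 33.5 CPM and NOP58, a small nucleolar RNP protein, at 159, 159.6, 158 and 159.6. Their coefficients of variation, 0.137% to 0.516%, lie below what counting alone gives at such levels, as the lowest of 7900 genes must.

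The 10 most variable were SLC38A1, SLC26A9, FAM171A1, NDUFA6, PTPRF, FIBCD1, CD34, FGFR1, GPC3 and F13A1. SLC38A1, a glutamine transporter, was at 0.704, 98.1, 0.549 and 11.6 CPM, and SLC26A9, a chloride transporter, at 84.4, 0.587, 64.2 and 0.185. FGFR1, a fibroblast growth factor receptor, was at 36.2, 88.8, 8.05 and 88.5 CPM, and F13A1, a coagulation factor subunit found in monocytes and platelets, at 48.6, 33.6, 4.21 and 67.8. SLC38A1 was high in sgControl 2, SLC26A9 in sgControl 1 and 3, and FGFR1 and F13A1 were lowest in sgControl 3, so these genes did not follow 1 common order of libraries.

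FAM171A1 was at 34.7, 5.28, 62.5 and 1.48 CPM and GPC3, a cell surface glypican, at 59.5, 18.2, 51.0 and 8.69. Both were higher in sgControl 1 and 3 than in the other libraries, as SLC26A9 was. PTPRF, a receptor phosphatase, was at 76.5, 11.4, 18.7 and 31.5 CPM and FIBCD1, a chitin receptor, at 74.1, 10.4, 29.5 and 28.3, both highest in sgControl 1 and lowest in sgControl 2. NDUFA6, a complex I subunit that every cell needs, was at 14.3, 58.9, 2.103 and 43.4 CPM, and how its reads were assigned is uncertain.

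The test of each guide against the other 3 asked which genes 1 library moved beyond the spread of the rest. edgeR's quasi-likelihood test with Benjamini-Hochberg adjustment over 14633 genes called 1 gene in sgControl 1, 25 in sgControl 2, 4 in sgControl 3 and 3 in sgControl 4. These are 0.00683%, 0.171%, 0.0273% and 0.0205% of the genes tested. At an unadjusted p under 0.05 the counts were 491, 952, 522 and 789, where 732 of 14633 would fall if no gene differed. None of the called genes was a member of the lineage, signalling and pathway lists described above. With 1 library against 3 the fit assumes that the lone library varies like the others. On simulated counts the same test called more genes in a library with no changed gene than in sgControl 1, 3 or 4 here. The numbers of calls in those libraries therefore do not exceed the error of the test. The counts of called genes also depended on which other libraries were kept. For sgControl 1 the count was 4 without sgControl 2, 6 without sgControl 3 and 2 without sgControl 4. For sgControl 2 it was 130 without sgControl 3 and 131 without sgControl 4. For sgControl 3 it was 20, 36 and 9 without sgControl 1, 2 and 4, and for sgControl 4 it was 24 and 93 without sgControl 1 and 2.

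In sgControl 1 the called gene was PTPN21, a protein tyrosine phosphatase, at 10.04 CPM against 0.0978, 0.366 and 0.185 in sgControl 2, 3 and 4 (log2 fold change 5.45 ± 0.44 SE, edgeR adjusted p = 0.0128). The genes next in rank did not pass. ZNF740 was at 43.6 CPM against 83.0 ± 6.45 (edgeR adjusted p = 0.142), and GNAZ, a G protein subunit, at 13.7 against 3.73 ± 0.462 (edgeR adjusted p = 0.163).

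In sgControl 2, 7 genes were higher (0.0478% of those tested) and 18 lower (0.123%). Of the genes with a mean of at least 5 CPM, 3 rose: TAF15, an RNA-binding factor of the transcription machinery, at 89.8 CPM against 44.4 ± 4.20, KANK2 at 89.3 against 56.9 ± 2.62, and the mitochondrial ribosomal RNA MT-RNR1 at 1019 against 735 ± 17.5. Their log2 fold changes were 1.02, 0.65 and 0.47. KANK2 was not called without sgControl 1 (edgeR adjusted p = 0.064).

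Among called genes with a mean of at least 5 CPM, the 5 largest falls in sgControl 2 were CA8, FERMT1, ZNF518B, RHEX and TENT5C. CA8, a carbonic anhydrase-related protein, was at 0.0978 CPM against 11.1 ± 2.97, and FERMT1, a kindlin that activates integrins, at 1.96 against 18.8 ± 4.08. RHEX, a regulator of erythroid cell expansion, was at 14.3 CPM against 65.9 ± 2.42, with a log2 fold change of -2.20 ± 0.12 SE and an edgeR adjusted p of 8.62e-05, the lowest of the 4 comparisons. ZNF518B fell from 42.0 ± 3.67 to 7.63 CPM and TENT5C, a poly(A) polymerase, from 14.2 ± 1.59 to 3.33. All 5 were still called under the 8 alternative settings tried.

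Further genes of sgControl 2 were picked out after their values were seen. HNRNPLL, a splicing regulator of lymphocytes, had 75 reads in sgControl 2 and 0 in the other 3 libraries, at least 81.0-fold higher when 3 reads over those 3 libraries are taken as the floor. CFD, complement factor D, was at 26.1 CPM against 103 ± 10.4, SAMHD1, a nucleotide hydrolase that lowers cytarabine's active form, at 18.3 against 45.3 ± 5.01, and RUNX2 at 14.2 against 29.7 ± 3.11. RUNX2 lost its edgeR call without sgControl 1, as did CHRM3, ANKRD18A and LYRM7, while CFD and SAMHD1 kept theirs under every alternative tried.

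In sgControl 3 the calls included INHBA, MORC4 and TUB, and of the 4 calls 2 lay in each direction (0.0137% of the genes tested higher and 0.0137% lower). INHBA, the activin A subunit, was at 40.5 CPM against 2.42 ± 0.447 (log2 fold change 4.06 ± 0.19 SE, edgeR adjusted p = 0.000249). TUB was at 8.78 CPM against 32.3 ± 2.43. MORC4, an X-linked chromatin factor, had 0 reads in sgControl 3 and 330 in the others, at least 37.3-fold lower.

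In sgControl 4 the calls were TBC1D4 and AFF2, which were higher (0.0137% of the genes tested), and NKAIN1, which was lower (0.00683%). TBC1D4, a regulator of glucose transporter traffic, was at 10.6 CPM against 0, 0.196 and 0.183 in sgControl 1, 2 and 3, and AFF2 at 13.4 against 0, 0.293 and 0.183. NKAIN1 was at 4.44 CPM against 20.3 ± 3.11. None of the 3 was called by edgeR without sgControl 3, where adjusted p lay between 0.0770 and 0.146, and another 3 genes were called in their place. NKAIN1 was also not called when only genes with a mean of at least 5 CPM were tested (edgeR adjusted p = 0.138), a rule that leaves TBC1D4 and AFF2 untested.

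Several of the genes that fell in sgControl 2 were neighbours. A search among genes with a mean of at least 5 CPM for 3 or more adjacent ones shifted the same way in 1 library, by more than 0.4 on the log2 scale, found 8 runs, of which 5 involved sgControl 2 and 2 lay in the MHC. One on chromosome 1 held SLC26A9, RAB7B and RHEX, lower in sgControl 2 (median log2 -2.17) and higher in sgControl 3 (0.74). One on X from GPRASP1 to BEX3 was lower in sgControl 1 (-0.56). Like the stretches below, these runs were looked for after the calls were seen and carry no test.

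On chromosome 7, INTS1, MAFK, ADAP1, COX19 and C7orf50 were all called lower, and they lie at chr7:897901-1543043 (GRCh38), a stretch of 645 kb from ADAP1 to MAFK. INTS1, a subunit of the Integrator complex that ends small nuclear RNAs, was at 263, 145.5, 275 and 292.5 CPM, MAFK, a small MAF factor, at 69.0, 33.54, 69.6 and 69.4, and COX19, a copper carrier for cytochrome oxidase, at 41.4, 21.03, 40.4 and 42.1. sgControl 2 alone was low for each, and the other 3 libraries lay close together.

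All 8 rows of this stretch with a mean of at least 5 CPM were lower in sgControl 2 than in each of the other 3. Their median was 51.7% of the mean of the other 3, with a range of 29.2% to 74.2%, and MICALL2 was the lowest. The 15 rows on either side of it had a median of 102%. ADAP1 and COX19 overlap, so how their reads were divided is uncertain. The stretch was noticed in the called genes, so it carries no test, and gene copy number was not measured.

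**Figure D3:**
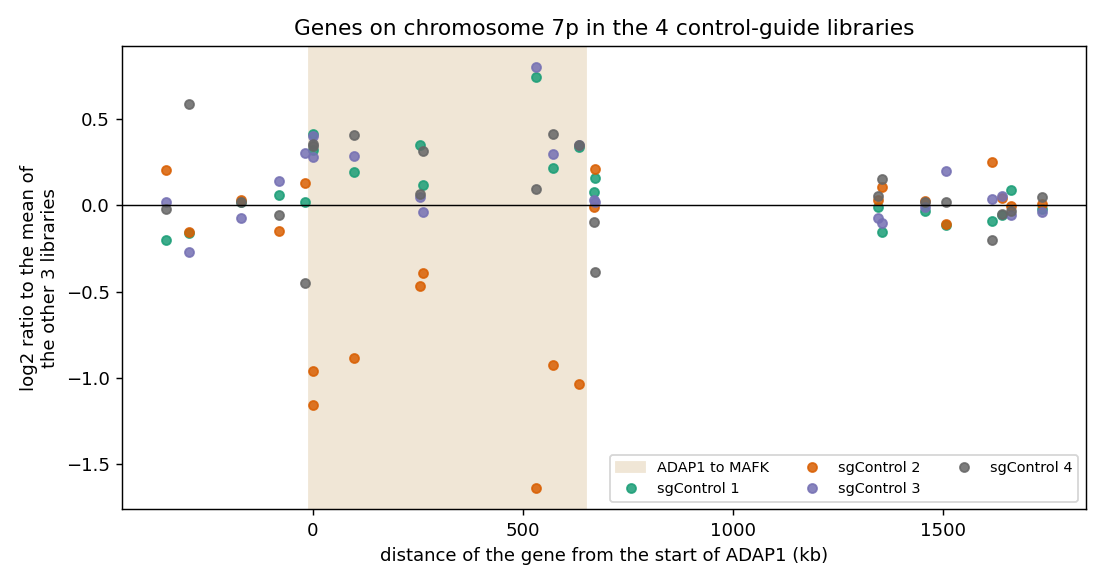
Log2 ratio of each gene to the mean of the other 3 control-guide libraries, by distance of the gene from the start of ADAP1 in kb. Inside the shaded stretch the 8 sgControl 2 points lie below 0 with a median of -0.94, and outside it the 4 libraries lie around 0.

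A smaller stretch on chromosome 9 looked alike. FAM95C, SNX18P3, ANKRD18A and FAM201A at chr9:38540569-38624990 (GRCh38) had a median in sgControl 2 of 43.8% of the other 3, all 4 lower, and only ANKRD18A was called. The 15 rows around them had a median of 103.5%. These genes overlap one another, ANKRD18A and FAM201A on opposite strands, and without a stated strand setting their reads cannot be told apart.

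Some genes went from expressed to silent between control guides. Of 11094 rows that reached 5 CPM in at least 1 control library, 34, or 0.306%, were under 0.5 CPM in another, a rule set after the values were seen and used only as a description. Just inside and outside it were MRPL45, whose lowest library was at 0.489 CPM, and VCAN at 0.549. In 5 of the 34 genes 1 library was on and 3 were off, in 3 genes 3 were on and 1 was off, and in 1 gene 2 were on and 2 off. The other 25 had values between the limits. sgControl 3 was off for 20 of them, sgControl 2 for 11, sgControl 1 for 9 and sgControl 4 for 8.

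The gene split evenly was C14orf132, at 11.2, 18.4, 0.366 and 0.185 CPM. The 3 lost from a single library were CA8 in sgControl 2 and MORC4 and ZNF711 in sgControl 3, ZNF711 at 6.16, 14.96, 0 and 13.2 CPM. The 5 gained by a single library, all called by edgeR, included PTPN21, HNRNPLL, TBC1D4 and AFF2. MYO1D, a myosin called in sgControl 2, was at 0.528, 15.7, 0.366 and 0.0924 CPM, just above the limit in sgControl 1.

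SHANK3, a synaptic scaffold, was at 4.49, 13.9, 0.366 and 19.0 CPM, and ADCY1, an adenylyl cyclase, at 1.94, 8.51, 0.274 and 27.6. MACROH2A2, a histone variant, was at 0, 3.03, 0.0914 and 16.2 CPM and AGAP1 at 4.40, 30.2, 6.77 and 0. SHANK3 and ADCY1 were off in sgControl 3, MACROH2A2 in sgControl 1 and 3, and AGAP1 in sgControl 4. IGFBP2, which binds insulin-like growth factors, was at 1.14, 1.08, 0 and 11.0 CPM.

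**Figure D4:**
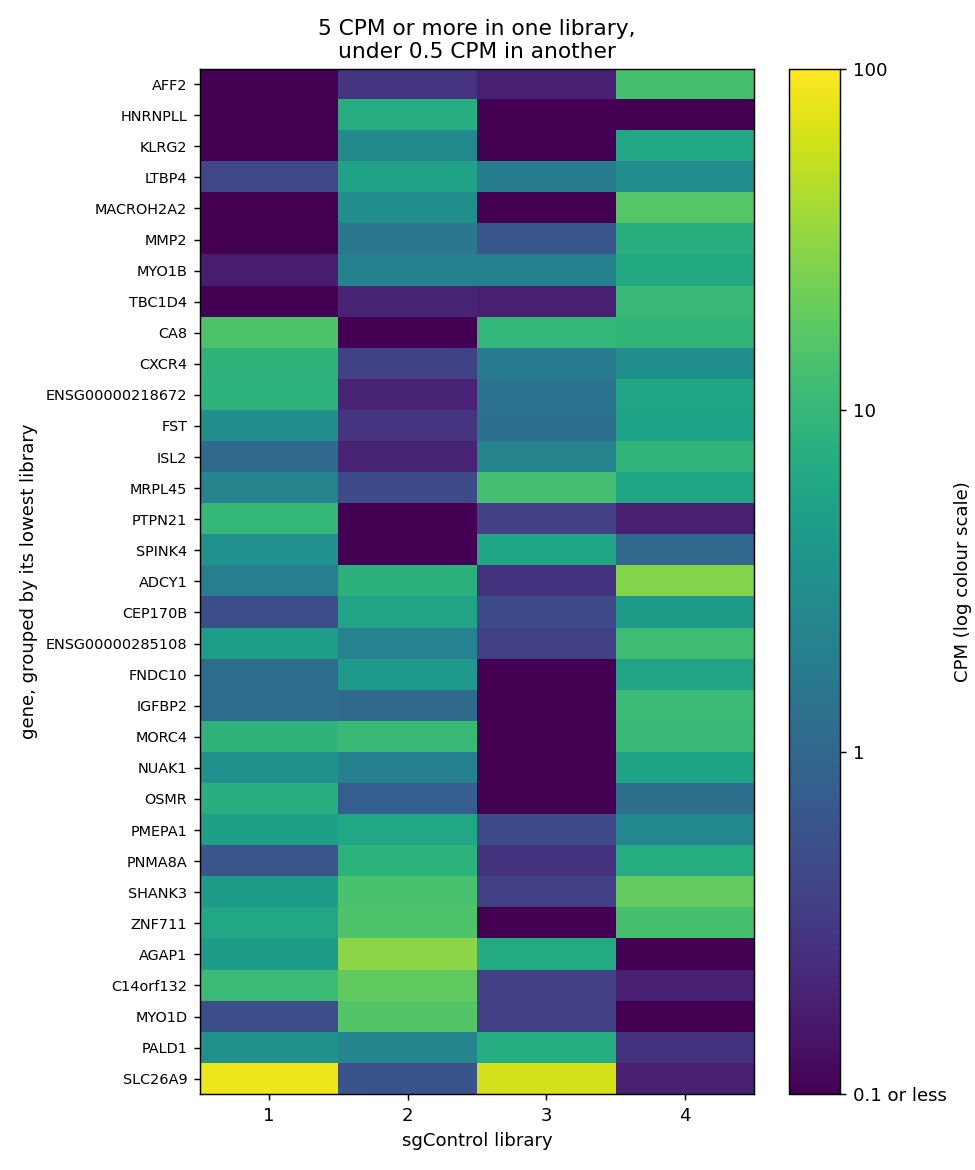
CPM of 33 of the 34 genes that reached 5 CPM in one control-guide library and stayed under 0.5 CPM in another, on a log colour scale, with genes grouped by their lowest library. Dark cells fall in every column, and sgControl 3, off for 20 of the 34 genes, has more of them than any other library.

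The start regions of 3 of these genes are shown, so that genes lost from or gained by 1 library can be compared at their promoters. RefSeq windows from 250 bases before to 50 after the start (GRCh38.p14) were found for 23 of the 34 genes. HNRNPLL was on only in sgControl 2, MORC4 was off only in sgControl 3, and SLC26A9 was on in sgControl 1 and 3. In each sequence, read 5′ to 3′ on the gene's strand, capitals mark CG, the dinucleotide that DNA methylation modifies.
HNRNPLL, chr2:38602879-38603178, minus strand: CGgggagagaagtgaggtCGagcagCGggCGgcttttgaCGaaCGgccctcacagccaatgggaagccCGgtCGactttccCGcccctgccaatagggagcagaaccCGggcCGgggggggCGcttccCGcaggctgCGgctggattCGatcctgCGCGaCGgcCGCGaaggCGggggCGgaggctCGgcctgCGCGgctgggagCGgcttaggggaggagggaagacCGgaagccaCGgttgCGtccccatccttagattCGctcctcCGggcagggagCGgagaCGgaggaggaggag
MORC4, chrX:107000163-107000462, minus strand: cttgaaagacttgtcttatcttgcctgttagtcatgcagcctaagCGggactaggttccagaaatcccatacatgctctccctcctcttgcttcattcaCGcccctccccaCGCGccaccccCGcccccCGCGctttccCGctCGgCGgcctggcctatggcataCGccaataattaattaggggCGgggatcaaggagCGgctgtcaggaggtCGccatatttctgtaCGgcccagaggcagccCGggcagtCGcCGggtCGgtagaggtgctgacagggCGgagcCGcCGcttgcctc
SLC26A9, chr1:205943407-205943706, minus strand: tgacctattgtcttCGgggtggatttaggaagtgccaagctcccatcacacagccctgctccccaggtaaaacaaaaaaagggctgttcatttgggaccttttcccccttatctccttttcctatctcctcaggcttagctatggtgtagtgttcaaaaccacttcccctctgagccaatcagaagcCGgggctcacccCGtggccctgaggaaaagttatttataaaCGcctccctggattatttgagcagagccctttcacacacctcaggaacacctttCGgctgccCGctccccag

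HNRNPLL had 33 CG in its window, MORC4 22 and SLC26A9 6. Over the 23 genes the median was 23.0 CG, with 16 of 23 (69.6%) holding at least 15, a limit chosen after the counts were seen. The same share was 85.9% of 8211 windows of genes at 5 CPM or more in all 4 controls and 48.8% of all 27305 windows. CG reads the same on both strands, so a search of either strand gives the same count. Methylation was not measured.

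The gene lists were also compared library by library. For a list, the number of members in which 1 library lay above, or below, all of the other 3 is given beside the same share over all 10730 rows with a mean of at least 5 CPM, which is 23.1% to 27.1% in either direction. No member of any list was called by edgeR in any library, so these counts describe direction only, and members of a pathway do not vary independently.

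DNA damage response targets were lowest in sgControl 3 for 16 of 25 genes (64.0%, against 24.0% of all rows), with a median log2 ratio of -0.17. CDKN1A was at 148 CPM there against 217 to 262 in the others, FAS, a death receptor, at 3.20 against 6.01 to 6.51, and ZMAT3 at 24.9 against 32.3 to 37.0. sgControl 2 was the highest for 11 of 25 (44.0%) and the lowest for 0. The separate list of double-strand break genes did not share this order. There sgControl 3 was the highest for 8 of 22 (36.4%, against 23.4% of all rows) and the lowest for 0.

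Primary granule genes were highest in sgControl 4 for 6 of 8 (against 26.1% of all rows), with a median log2 ratio of 0.43, and lowest in sgControl 2 for 6 of 8, with a median of -0.32. Monocyte and macrophage genes were also highest in sgControl 4 for 6 of 8, with a median of 0.36, while CSF1R was lowest there. Genes of the amino acid and stress response driven by ATF4 were highest in sgControl 4 for 11 of 20 (55.0%), but so were cytokine receptors for 12 of 21 (57.1%), cholesterol synthesis for 11 of 22, hypoxia and glycolysis for 13 of 26 and housekeeping genes for 8 of 16. The stress genes included PHGDH, a serine synthesis enzyme, at 131.8, 141, 115 and 186 CPM and DDIT4, an mTOR inhibitor, at 20.5, 21.03, 28.1 and 42.0.

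Interferon-stimulated genes were lowest in sgControl 4 for 11 of 24 (45.8%) and highest in sgControl 3 for 10 of 24 (41.7%). Double-strand break genes were lowest in sgControl 2 for 12 of 22 (54.5%), with a median log2 ratio of -0.12, and proliferation genes for 13 of 25 (52.0%), with a median of -0.05. Mitochondrially encoded genes were lowest in sgControl 3 for 11 of 13 (84.6%), with a median of -0.07, and most of these genes are cut from shared precursor transcripts. Mitochondrial counts were 2.95% of the total in that library against 3.00% to 3.08% in the others.

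**Figure D5:**
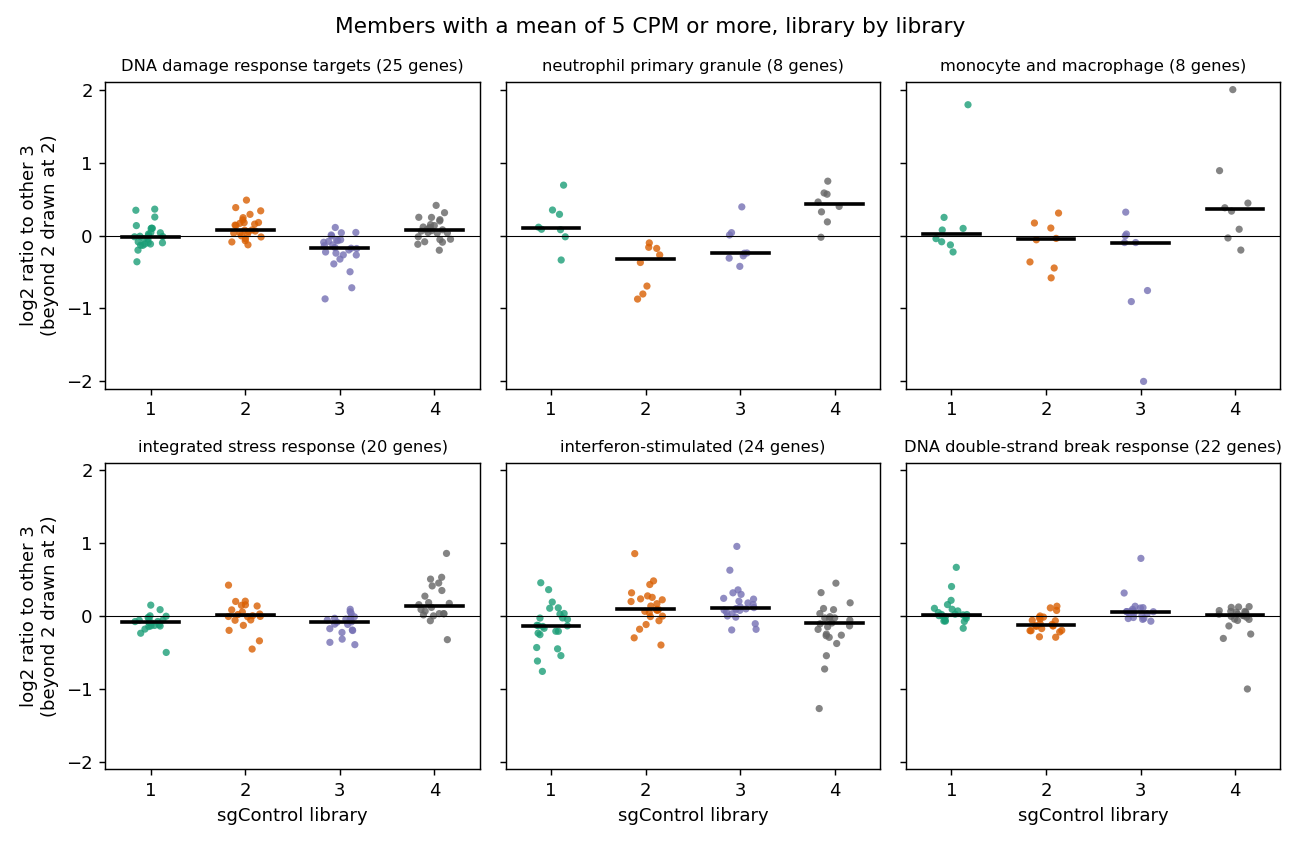
Log2 ratio of each member with a mean of at least 5 CPM to the other 3 control-guide libraries, for 6 gene lists; black bars are medians. DNA damage response targets lie lowest in sgControl 3 (median -0.17) and primary granule genes highest in sgControl 4 (0.43), while most points stay within 1 of 0.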

How the data were processed

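The authors deposited 1 table of read counts per gene and library, not normalized. The tools named, per the submitters' processing notes, are HISAT2, FastQC and DESeq2, and the build is hg38. The counting tool, annotation, strand setting and handling of reads that match several places are not given in the sources used here. Polyadenylated RNA was made into libraries with the Fast RNA-seq Lib Prep Kit V2, per the labels' protocols. All rows name a gene, and 116 repeat a symbol. The 4 sgControl columns were used alone.

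From these counts, CPM with TMM scaling, CPM per kilobase (GENCODE release 29, 95.6% of rows matched by symbol) and the common dispersion were computed with edgeR 4.0.16 in R 4.3.3. Genes were kept by edgeR's filter with a minimum count of 10, each library being its own group, which left 14633. Each library was tested against the other 3 with edgeR's quasi-likelihood test (robust fit), Benjamini-Hochberg adjusted, with a threshold of 0.05. An SE given with a log2 fold change was back-calculated from the F statistic of that test, since the fit itself gives none. Log2 ratios in lists and neighbouring genes used a pseudocount of 0.5 CPM, and correlations a prior count of 2. Alternatives were DESeq2 1.42.0, other scalings, filters, gene lengths and thresholds, and leaving out libraries.

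The members and gene lists were chosen with earlier results of these data known. Named genes are the list members, the 15 highest per kilobase, the 5 largest rises and falls per library among called genes with a mean of at least 5 CPM (or, with fewer than 3 calls, the 3 lowest p), and the 10 most and 10 least variable at 20 CPM or more; clone and accession names are left out, and a few genes that the rule names are not reported here. The fits were tested on simulated data, where most changed genes were recovered. Calls also included unchanged genes more often than the threshold allows. A few calls arose in a library with no changed gene, more than in sgControl 1, 3 or 4 of the real data. The calls of single libraries are to be read with that error.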

Additional observations from a re-analysis of the deposited data

Results flagged for a closer look

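In each group of 4 libraries, a gene was singled out when its highest or lowest library lay far from the other 3, by Dixon's ratio of the gap to the whole range at its 95% critical value. Chance passes about 1 in 20 groups, and many of the 213 genes examined were described because of their values, so the 29 genes found (13.6%) are no count against chance. sgControl 2 was the library apart in 14 of them, sgControl 1 in 4, sgControl 3 in 5 and sgControl 4 in 6.

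In sgControl 2 the highest values apart were SLC38A1 at 98.1 CPM, KANK2 at 89.3, TAF15 at 89.8, MT-RNR1 at 1019, MYO1D at 15.7, HNRNPLL at 7.33 and CHRM3, a muscarinic receptor, at 2.84. The lowest values apart were TET2 at 77.3, LYRM7 at 38.9, MAFK at 33.54, COX19 at 21.03, ADAP1 at 16.8, RHEX at 14.3 and SNX18P3 at 4.499 CPM. ADAP1, COX19 and MAFK are the neighbours on chromosome 7.

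In sgControl 1, CCND1 stood apart at 17.7 CPM, GNAZ at 13.7 and PTPN21 at 10.04, all high, and MEIS1 at 2.73, which is low. In sgControl 3, INHBA at 40.5, CD99 at 6.40 and HSP90AB1 at 1905 CPM were high, and FAS at 3.20 and PRTN3 at 0.0914 were low. HSP90AB1 and MEIS1 did not differ beyond counting error. In sgControl 4, AFF2 at 13.4, IGFBP2 at 11.0, TBC1D4 at 10.6, CD3D at 0.462, BCL2A1 at 0.185 and CD14 at 0.0924 CPM were high, the last 3 on a handful of reads.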

How the results depend on the processing

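The number of genes called in 1 library depended on the tool, the filter and the libraries. With DESeq2 in place of edgeR the counts were 4, 48, 11 and 18 for sgControl 1 to 4, where edgeR gave 1, 25, 4 and 3, and with no filter on low counts edgeR gave 29, 120, 13 and 62. With a mean of at least 5 CPM required, or with a threshold of 0.01, edgeR called 0 genes for sgControl 1 and for sgControl 4. Leaving out 1 of the other libraries gave 2 to 6 genes for sgControl 1, 25 to 131 for sgControl 2, 9 to 36 for sgControl 3 and 3 to 93 for sgControl 4. The counts were highest for sgControl 1 without sgControl 3, for sgControl 2 without sgControl 4 (131) or sgControl 3 (130), and for sgControl 3 (36) and 4 (93) without sgControl 2, and the cause was not tested. The 266 genes over 2-fold became 63 among genes averaging 20 CPM or more, and 160 to 213 when a library was left out, the lowest without sgControl 2. Another scaling left the calls of every library unchanged, and DESeq2 shared 24 of the 25 calls of sgControl 2.

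Of the other results, the count beyond counting error lay between 2631 and 3750 and the biological coefficient of variation between 8.52% and 10.2% over the alternatives. No result reversed. By longest transcript 9 levels per kilobase moved by more than their SD, among them MYC, from 296 to 376.1. No paired analysis was possible because only 1 group was analysed and its replicate numbers name different guides. With 1 library per guide, a difference between guides has no replicate of its own. Genes near or under 1 CPM rest on few reads, since 1 CPM is 10.2 to 11.4 reads in a library.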
